A study of Mus musculus with 12 samples.

Results

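The 8 genes of the endocardium and of the response to flowing blood were followed across the 4 groups of a study on Nos3-deficient mouse hearts. They were Nfatc1, Cytl1, Tmem100, Ece1, Edn1, Ednrb, Klf2 and Klf4, chosen by symbol out of 18194 measured genes. A ninth gene, Ednra, which encodes the other endothelin receptor, was named with them, had no probe set under its own symbol in the platform annotation, and was not analysed here, so that 8 of 9 named genes are described. The 8 genes had 18 probe sets (groups of probes on the array that read one transcript) in all, and each gene is represented by its probe set of highest mean, with the others given beside it. The study profiled ventricles of mouse embryos at 14.5 days post coitum on 12 Affymetrix arrays, each hybridised with RNA pooled from 15 to 30 embryos. The left and right ventricles were dissected from embryos homozygous for a targeted Nos3 allele of strain B6.129P2-Nos3tm1unc/J (KO_LV and KO_RV) and from wild-type CD1 embryos (WT_LV and WT_RV), with 3 arrays in each of the 4 groups. The allele is inherited through the germline and is not restricted to a cell type, and the labels name no treatment in any group. Every KO pool had one strain background and every WT pool another, so the allele cannot be told apart from the strain in any KO minus WT difference. Values are log2 expression, on which a difference of 1 is a doubling, and a gene is called changed where limma's p-value, adjusted over all genes, is under 0.05.

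The endocardium is the endothelial layer that lines the chambers of the heart, and its cells sense the drag of the flowing blood (shear stress). Flow raises the transcription factors Klf2 and Klf4 in endothelium through the kinases Map3k3 and Mapk7 and the MEF2 factors, and Klf2 in turn raises Nos3, the endothelial nitric oxide synthase. Nfatc1 is a calcineurin-dependent transcription factor of the endocardium that is needed for the valves, and Tmem100 is a membrane protein of arterial endothelium and endocardium induced by BMP9 and BMP10 through the receptor Acvrl1. Cytl1 is a small secreted cytokine-like protein found in endocardium and in cartilage. Edn1 encodes the peptide precursor of endothelin-1, Ece1 the protease that cuts the precursor to the active peptide, and Ednrb the receptor through which endothelial cells answer endothelins with nitric oxide. Ednrb is also needed in migrating neural crest.

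The promoter windows of 4 genes are shown because they belong to genes with contrasting results below, namely the flow-induced factors Klf2 and Klf4, which were both higher in KO left ventricles, Cytl1, the single member that was lower, and Edn1, which did not pass the test. Each runs from 250 bases before to 50 bases after the RefSeq gene start (build GRCm38.p6), 5′ to 3′ on the strand of the gene, at chr8:72318812-72319111 (+) for Klf2, chr4:55532426-55532725 (-) for Klf4, chr5:37735269-37735568 (+) for Cytl1 and chr13:42301226-42301525 (+) for Edn1. Capitals mark matches, on either strand, to the motif of GATA factors (AGATAA), that of Krüppel-like and Sp factors (CCNCNCCC), that of NFAT factors (TGGAAA) or the palindromic one of MEF2 factors (CTA and TAG with any 4 bases between them), and overlapping matches run together.
Klf2: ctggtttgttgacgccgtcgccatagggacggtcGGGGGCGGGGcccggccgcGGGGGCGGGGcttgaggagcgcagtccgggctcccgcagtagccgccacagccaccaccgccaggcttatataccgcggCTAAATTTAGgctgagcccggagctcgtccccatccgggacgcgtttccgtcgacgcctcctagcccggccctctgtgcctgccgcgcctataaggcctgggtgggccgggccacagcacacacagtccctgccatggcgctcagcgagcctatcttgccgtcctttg
Klf4: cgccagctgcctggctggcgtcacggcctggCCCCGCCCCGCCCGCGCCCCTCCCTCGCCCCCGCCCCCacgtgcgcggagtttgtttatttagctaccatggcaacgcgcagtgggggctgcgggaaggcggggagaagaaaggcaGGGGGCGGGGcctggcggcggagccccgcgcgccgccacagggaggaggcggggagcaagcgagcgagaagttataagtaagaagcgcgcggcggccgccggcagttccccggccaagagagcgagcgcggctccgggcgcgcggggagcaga
Cytl1: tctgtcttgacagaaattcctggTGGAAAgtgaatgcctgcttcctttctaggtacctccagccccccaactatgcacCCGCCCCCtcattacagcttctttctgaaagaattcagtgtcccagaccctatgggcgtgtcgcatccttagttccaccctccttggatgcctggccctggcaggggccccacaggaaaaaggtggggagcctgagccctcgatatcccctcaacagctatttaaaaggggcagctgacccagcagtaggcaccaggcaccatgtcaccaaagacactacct
Edn1: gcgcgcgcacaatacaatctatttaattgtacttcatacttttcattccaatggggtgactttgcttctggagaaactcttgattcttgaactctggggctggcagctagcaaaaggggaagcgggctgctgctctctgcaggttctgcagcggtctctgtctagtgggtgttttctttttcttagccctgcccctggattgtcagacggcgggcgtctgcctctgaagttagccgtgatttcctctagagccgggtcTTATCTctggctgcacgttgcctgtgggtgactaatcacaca

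The Klf2 window held 1 match to the MEF2 motif, CTAAATTTAG, whose first base lies at -118 from the gene start, and 4 matches to the Krüppel-like motif. Klf4 had 9 matches to the Krüppel-like motif and 0 to the MEF2 motif. Cytl1 had 1 match to the Krüppel-like and 1 to the NFAT motif, and Edn1 had 1 match to the GATA motif, 8 bases after the start. Among 32851 mouse windows of the same length 3.69% held the MEF2 motif, 11.2% the GATA motif, 49.5% the Krüppel-like motif and 21.4% the NFAT motif. The windows of Klf2 and Klf4 contained 69.3% and 74.3% G and C, against a median of 52.7% over all windows. The window of Ednrb held 0 matches to all 4 motifs, and those of Ece1 held matches to the Krüppel-like motif alone. A match is a run of letters and not a measured binding site.

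A single array bears on several results and is given first. WT_RV replicate 3 correlated across genes with the 3 WT left ventricles at a mean of 0.995 and with the other 2 WT right ventricles at 0.9935. It shares with the WT left ventricles a high mean of the 24 poly-A spike-in probe sets, which read control transcripts mixed into the sample, 8.89 to 8.96 on these 4 arrays against 7.35 to 8.47 on the other 8. All KO arrays were on the low side, so among left ventricles alone the control level and the genotype cannot be told apart. The targeted gene was lower in KO arrays in both ventricles. Nos3 read 7.95, 8.02 and 7.86 in KO_LV against 8.36, 8.39 and 8.30 in WT_LV (difference -0.41, limma adjusted p = 0.0376). It read 8.23, 8.04 and 7.77 in KO_RV against 8.72, 8.94 and 8.37 in WT_RV (difference -0.66, limma adjusted p = 0.00983). The files do not place its probe set relative to the targeted exons, so residual signal cannot be read as intact transcript. Cardiomyocyte markers were high in every group, the mean of 8 genes lying at 13.30 to 13.86 on the 12 arrays where the median of all values was 5.67. Of these 8 markers 3 were called higher in KO_LV and 1 in KO_RV, where 18.6% and 4.61% of all genes were called higher.

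**Figure D1:**
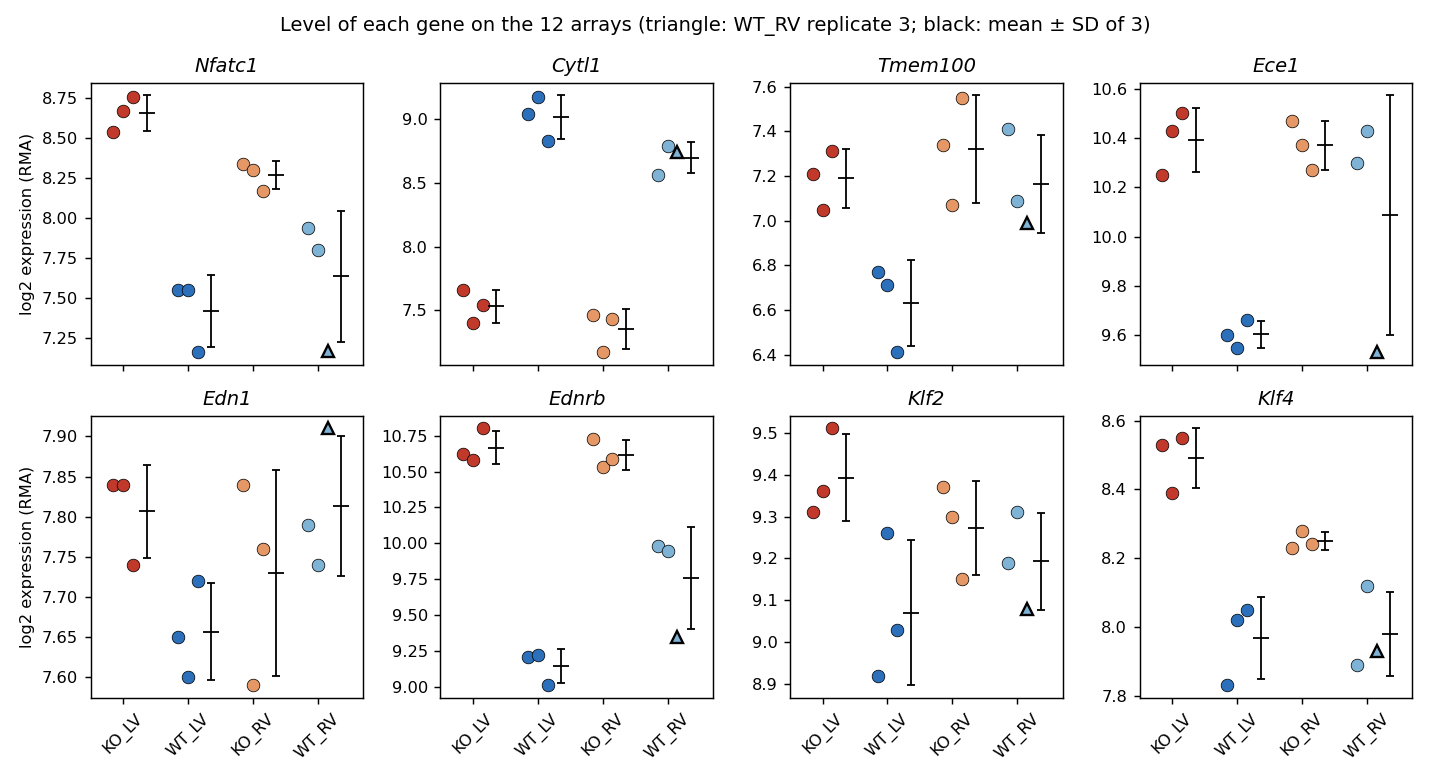
Log2 expression (vertical axes, 1 panel per gene, scales differ) of the 8 genes on each of the 12 arrays, by group; points are arrays, the triangle is WT_RV replicate 3, and black bars are the mean ± SD of 3 arrays. Cytl1 lies at 7.17 to 7.66 on the 6 KO arrays and at 8.56 to 9.17 on the 6 WT arrays, while WT_RV replicate 3 lies at or near the WT left ventricles for Nfatc1 (7.17) and Ece1 (9.53).

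In the left ventricle most of these genes stood higher in KO than in WT embryos, and one stood clearly lower. The endocardial factor Nfatc1, Tmem100, the protease Ece1, the receptor Ednrb, and both flow-induced factors rose, Cytl1 fell, and Edn1 did not pass the test. That is 6 genes called higher and 1 lower out of 8, where 18.6% of all genes were called higher and 12.3% lower. Centring each array on its median, which changed no call of these 8 genes, moved the genome-wide split to 4282 higher and 1212 lower, against 3378 and 2239 as reported. The median difference of the 8 genes was 0.54, against -0.01 over all genes. The KO and WT arrays did not overlap for any of the 8 (7 higher and 1 lower in KO), where 44.4% of all genes were without overlap. In bulk tissue, more cells of a type and more RNA per cell cannot be told apart. In the right ventricle Nfatc1 and Ednrb were called higher and Cytl1 lower, so 2 and 1 of 8, where 4.61% and 3.58% of all genes were called (838 and 652, or 852 and 374 after centring, and 447 and 315 without KO_RV replicate 1). Of the 8, 4 were without overlap there, against 29.4% of all genes, and the median difference was 0.21 against -0.04.

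**Figure D2:**
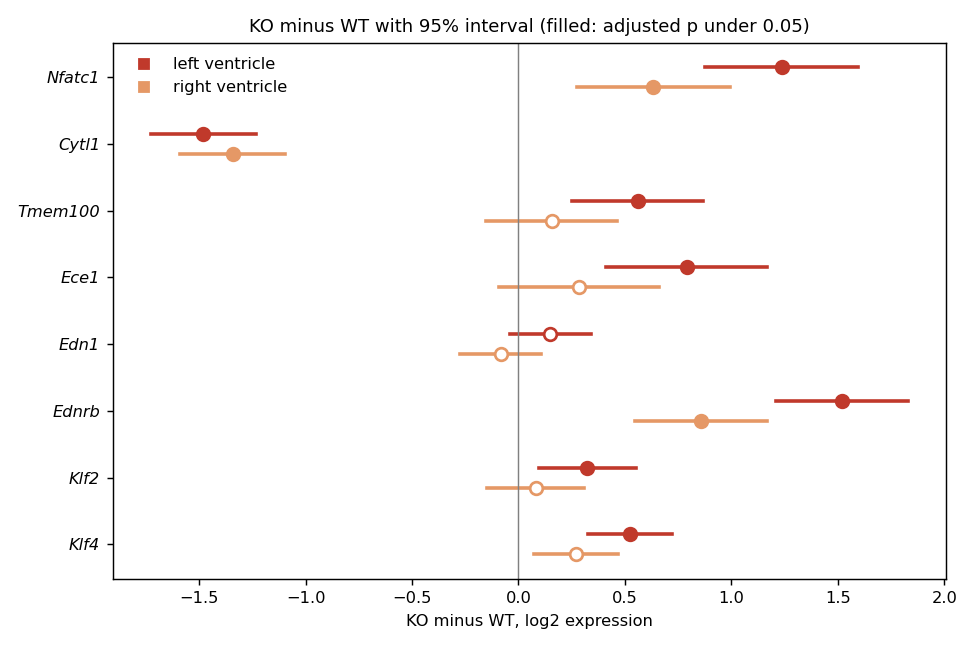
KO minus WT difference in log2 expression (horizontal axis) of the 8 genes in the left and right ventricle, with the 95% interval of limma; filled points have an adjusted p under 0.05. Cytl1 is the only gene to the left of 0 in both ventricles, at -1.48 and -1.34, and Ednrb has the largest rise in both, 1.52 and 0.86.

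Among the endocardial genes, Nfatc1 read 8.54, 8.67 and 8.76 in KO_LV against 7.55, 7.55 and 7.16 in WT_LV. All KO values exceeded all WT values, and the difference was 1.24 (SE 0.17, limma adjusted p = 0.000212), a 2.36-fold change, with 0.93% of genes showing a larger one in either direction. The right ventricles read 8.34, 8.30 and 8.17 in KO_RV against 7.94, 7.80 and 7.17 in WT_RV. The lowest WT value is that of replicate 3, and the groups again did not overlap. The difference was 0.63 (SE 0.17, limma adjusted p = 0.0336), and without WT_RV replicate 3 it was 0.40 and no longer called (limma adjusted p = 0.0877). Without that array 1 of the 8 genes was called higher in KO_RV and 1 lower, where 3.06% and 2.26% of all genes were. Leaving out any KO right ventricle also ended that call, with differences of 0.60, 0.62 and 0.68. Among the 4 group means, KO_LV (8.66 ± 0.11, SD, n = 3) was followed by KO_RV (8.27 ± 0.09), WT_RV (7.64 ± 0.41) and WT_LV (7.42 ± 0.23), and the last pair overlapped.

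Nfatc1 had 5 probe sets, and its others leaned the same way in the left ventricle with smaller sizes. The second-brightest read 7.44, 7.41 and 7.93 in KO_LV against 6.42, 6.61 and 6.62 in WT_LV, a difference of 1.04 (limma adjusted p = 0.00249 when all 45101 probe sets were fitted). The other 3 gave 0.55, 0.34 and 0.39, of which the first 2 were called. The last of them had a mean of 5.48, below the median of all values (5.67). Between right ventricles these 4 sets gave 0.39, 0.29, 0.14 and -0.14 and none was called, and in that fit of all probe sets the set used for the gene had adjusted p = 0.0585. With the mean of the 5 sets Nfatc1 was called in the left ventricle (0.71, limma adjusted p = 0.000425) and not in the right (0.26, limma adjusted p = 0.137).

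Cytl1, the secreted cytokine-like protein, was lower in KO arrays of both ventricles. It read 7.66, 7.40 and 7.54 in KO_LV against 9.04, 9.17 and 8.83 in WT_LV, and 7.46, 7.17 and 7.43 in KO_RV against 8.56, 8.79 and 8.74 in WT_RV. Every KO array lay below every WT array, WT_RV replicate 3 included. The differences were -1.48 (SE 0.115, limma adjusted p = 2.48e-06) in the left and -1.34 (SE 0.115, limma adjusted p = 7.94e-06) in the right ventricle, which leave 0.358 and 0.394 of the WT level. In absolute size 0.46% and 0.37% of all genes had a larger difference. Both calls held under all 14 other settings tried, with differences of -1.57 to -1.39 in the left and -1.41 to -1.25 in the right ventricle. The gene had a single probe set.

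Tmem100, the BMP9- and BMP10-induced membrane protein, read 7.21, 7.05 and 7.31 in KO_LV against 6.77, 6.71 and 6.41 in WT_LV. The difference was 0.56 (SE 0.14, limma adjusted p = 0.0096). Right ventricles read 7.34, 7.07 and 7.55 in KO_RV against 7.41, 7.09 and 6.99 in WT_RV, values that overlapped. That difference was 0.16, with a 95% interval of -0.15 to 0.46. The lowest group was WT_LV (6.63 ± 0.19, SD, n = 3), and KO_RV (7.32 ± 0.24), KO_LV (7.19 ± 0.13) and WT_RV (7.16 ± 0.22) lay within each other's spread. Its second probe set had a mean of 5.925 over the 12 arrays, near the median of all values (5.67). It gave -0.04 in the left and -0.21 in the right ventricle. Replicate 3 was the lowest array of KO_LV (5.15), WT_LV (5.17) and KO_RV (5.62) and the highest of WT_RV (6.21) in that set. With the mean of both sets the left call was lost (0.26, limma adjusted p = 0.244).

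Of the 3 measured endothelin genes Ednrb, Ece1 and Edn1, the receptor gene had the largest KO minus WT difference and the ligand gene the smallest in both ventricles. Ednrb read 10.62, 10.58 and 10.80 in KO_LV against 9.21, 9.22 and 9.01 in WT_LV. The groups stood far apart, with a difference of 1.52 (SE 0.14, limma adjusted p = 1.47e-05), a 2.87-fold change. Right ventricles read 10.73, 10.53 and 10.59 in KO_RV against 9.98, 9.95 and 9.35 in WT_RV, a difference of 0.86 (SE 0.14, limma adjusted p = 0.00271). Without WT_RV replicate 3, which again lay near the WT left ventricles, the right difference was 0.65 and still called (limma adjusted p = 0.0026). KO_LV (10.67 ± 0.12, SD, n = 3) and KO_RV (10.62 ± 0.10) did not differ beyond their spread, and WT_RV (9.76 ± 0.36) lay above WT_LV (9.15 ± 0.12) without overlap.

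Of the 2 other Ednrb sets one followed this pattern, with 1.13 in the left (limma adjusted p = 0.00293) and, between right ventricles, 0.61 (0.116). The other read 8.96, 9.18 and 9.32 in KO_LV against 8.59, 8.27 and 7.95 in WT_LV, a difference of 0.88 (0.0541). In right ventricles it read 9.15, 9.26 and 8.44 in KO_RV against 9.28, 9.35 and 8.11 in WT_RV, a difference of 0.04. Replicate 3 was the lowest array in both of those groups. With the mean of the 3 sets Ednrb was still called in the left ventricle (1.18) and not in the right (0.50, limma adjusted p = 0.153).

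Ece1, the processing protease, read 10.25, 10.43 and 10.50 in KO_LV against 9.60, 9.55 and 9.66 in WT_LV, a difference of 0.79 (SE 0.175, limma adjusted p = 0.00443). Right ventricles read 10.47, 10.37 and 10.27 in KO_RV against 10.30, 10.43 and 9.53 in WT_RV. WT_RV replicates 1 and 2 lay at the level of the KO arrays, and replicate 3 lay below all WT left ventricles. The right difference was 0.28 (95% interval -0.09 to 0.66), and without that array it was 0.01. A second probe set gave 0.76 in the left (limma adjusted p = 0.00638) and, between right ventricles, 0.09. The third gave -0.12 and 0.26, with a mean of 4.41 over the 12 arrays, below the median of all values (5.67). With the poly-A control class (high or low) in the model, which rests on WT_RV replicate 3 alone, the left difference of Ece1 turned to -0.05.

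Edn1, the ligand gene, passed the test in neither ventricle. It read 7.84, 7.84 and 7.74 in KO_LV against 7.65, 7.60 and 7.72 in WT_LV, and 7.84, 7.59 and 7.76 in KO_RV against 7.79, 7.74 and 7.91 in WT_RV. The difference of 0.15 in the left ventricle had a 95% interval of -0.04 to 0.34 (limma adjusted p = 0.221), and that of -0.08 in the right one of -0.27 to 0.11 (limma adjusted p = 0.582).

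The other 14 genes listed for the endothelin axis, all measured, moved both ways, with 7 called higher and 3 lower in KO_LV, where 18.6% and 12.3% of all genes were. In KO_RV 2 were called higher and 1 lower, where 4.61% and 3.58% of all genes were. The median difference of the list was 0.18 in the left ventricle, against -0.01 over all genes, and -0.01 in the right, against -0.04. This list and the pathway lists below were drawn up with earlier results of these data known, so their counts are a description. Plcb1, a phospholipase downstream of endothelin receptors, rose by 0.96 in the left and 0.58 in the right ventricle, and Gnaq, the G protein subunit that activates it, rose by 0.72 in the left. Rgs4, a brake on such G proteins, fell by 0.62 and 0.55, and Edn3, the ligand that acts through Ednrb in neural crest, fell by 0.52 in the left ventricle.

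Both flow-induced factors were called higher in KO_LV, and neither in KO_RV. Klf4 read 8.53, 8.39 and 8.55 in KO_LV against 7.83, 8.02 and 8.05 in WT_LV, a difference of 0.52 (SE 0.09, limma adjusted p = 0.00112). Right ventricles read 8.23, 8.28 and 8.24 in KO_RV against 7.89, 8.12 and 7.93 in WT_RV. These groups did not overlap, and the difference of 0.27 missed the threshold (95% interval 0.07 to 0.47, limma adjusted p = 0.0867). Its second probe set gave larger differences, 0.94 in the left (limma adjusted p = 0.000185) and, between right ventricles, 0.58 (0.00961). With the mean of both sets Klf4 was called in both ventricles, at 0.73 and 0.43 (limma adjusted p = 0.000159 and 0.0139).

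Klf2 read 9.31, 9.36 and 9.51 in KO_LV against 8.92, 9.26 and 9.03 in WT_LV. The lowest KO value and the highest WT value were close, and the difference was 0.32 (SE 0.11, limma adjusted p = 0.0334), a size exceeded by 29.6% of all genes. The call was lost in 7 of 14 other settings, among them leaving out KO_LV replicate 2 or 3 or WT_LV replicate 1 or 3 (0.25 to 0.34). For right ventricles Klf2 read 9.37, 9.30 and 9.15 in KO_RV against 9.19, 9.31 and 9.08 in WT_RV, which overlapped, and the difference was 0.08 (95% interval -0.15 to 0.31).

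**Figure D3:**
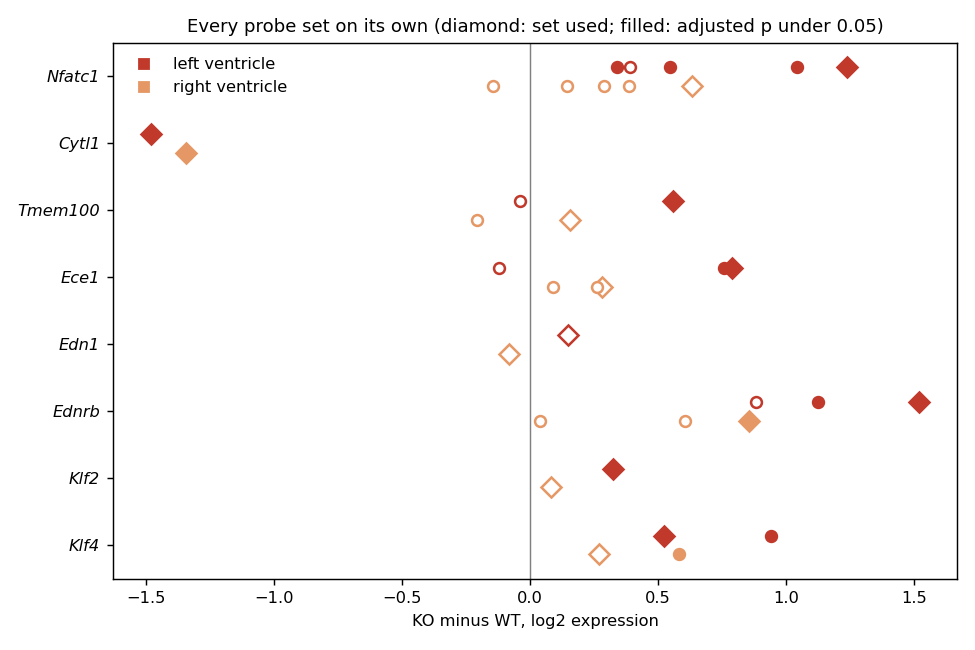
KO minus WT difference in log2 expression (horizontal axis) of each of the 18 probe sets of the 8 genes in the left and right ventricle, from a fit of all 45101 probe sets; diamonds are the sets used, circles the others, and filled symbols have an adjusted p under 0.05. In the left ventricle 12 sets are called higher and 1 lower, and in the right 2 and 1.

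Over the 18 probe sets, 12 were called higher, 1 lower and 5 not in the left ventricle, where 12.8% of all probe sets were called higher and 10.5% lower. Among right ventricles 2 were called higher and 1 lower, against 2.88% and 2.01% of all. The sets of one gene share its transcript and are not separate genes.

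Upstream of Klf2 and Klf4, 6 of 22 measured genes were called higher in KO_LV and 1 lower, against 18.6% and 12.3% of all genes. The higher count is not far from that share. In KO_RV 0 of the 22 were called, where 4.61% and 3.58% of all genes were. Plxnd1, a flow sensor of endothelium, rose by 1.11 and Ccm2, a scaffold that restrains Map3k3, by 0.60, and the mechanically gated channel Piezo2 fell by 0.54. Among 26 flow-responsive genes downstream, 13 were called higher and 2 lower in KO_LV, against the same shares of all genes. In KO_RV 1 was called higher and 2 lower, against 4.61% and 3.58% of all genes, and the targeted gene Nos3 is 1 of the 2. The downstream list is not split by the direction in which its genes respond to flow, so these counts give no direction of the pathway. Adamts1, a protease of cardiac jelly, rose by 1.00 and the receptor Tek by 0.72 in the left ventricle, where Klf15 fell by 0.54, and Nos3 itself is the other of the 2 falls there. Among right ventricles Cav1, the caveolar coat protein, fell by 0.52 and Plat, tissue plasminogen activator, rose by 0.37.

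In the calcineurin pathway that activates Nfatc1, 7 of 13 measured genes were called higher in KO_LV and 0 lower, where 18.6% and 12.3% of all genes were, with Rcan2, a calcineurin regulator, at 0.63 and Gsk3b, a kinase that sends NFAT out of the nucleus, at 0.63. In KO_RV 0 of the 13 were called, where 4.61% of all genes were called higher and 3.58% lower. In BMP9, BMP10 and ALK1 signalling around Tmem100, 6 of 15 were called higher and 1 lower in KO_LV, against the same shares. The receptor Bmpr2 rose by 0.96, the inhibitory Smad6 by 0.76, and the target Id3 fell by 0.38. In KO_RV Smad6 alone was called (higher, 0.39), against the 4.61% and 3.58% of all genes. Medians of these 4 lists ran from 0.18 to 0.32 in the left ventricle, where the median gene was at -0.01, and from 0.02 to 0.11 in the right, where it was at -0.04.

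Most other endocardial and endothelial markers were, like most of these genes, higher in KO left ventricles. The marker lists, here and below, were also drawn up with earlier results of these data known, so their counts are a description. All 7 other endocardial markers rose in KO_LV, and 3 of 7 in KO_RV, where 18.6% and 4.61% of all genes were called higher. For the falls given next, 12.3% of all genes were called lower in KO_LV and 3.58% in KO_RV. Adgrg6, an adhesion G protein-coupled receptor, rose by 1.21 and 0.73, and Hapln1, a linker of cardiac jelly, by 2.03 and 1.56. Of 12 endothelial markers 8 rose and 1 fell in KO_LV, and 1 rose and 1 fell in KO_RV. Cdh5, the endothelial cadherin, rose by 1.08 in the left ventricle, whereas Cldn5, a tight junction gene, fell by 0.54 and 0.76. Capillary markers went the other way, with 0 of 6 higher and 3 lower in KO_LV, among them Fabp4 (-0.66) and Gpihbp1 (-1.0), and 1 of 6 lower in KO_RV (Fabp4, -0.50). Their mean was 9.24 to 9.39 in KO_LV against 9.48 to 9.98 in WT_LV and 9.11 to 9.46 in KO_RV against 9.45 to 9.76 in WT_RV.

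The mean of the 7 endocardial markers was 9.09 to 9.44 in KO_LV against 8.13 to 8.33 in WT_LV and 9.07 to 9.20 in KO_RV against 8.23 to 8.76 in WT_RV, where 8.23 is replicate 3. The mean of 12 endothelial markers was 9.07 to 9.27 in KO_LV against 8.61 to 8.90 in WT_LV and 9.02 to 9.09 in KO_RV against 8.77 to 9.09 in WT_RV. Cytl1 was lower in KO arrays of both ventricles. With WT_RV replicate 3 left out, so that all right ventricles were of the low control class, its right difference was -1.32. The part of endocardial cell number in the Cytl1 differences was not tested. Fits with the control level are given below and do not tell it apart from genotype in the left ventricle.

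Markers of other cells are given beside these, against 18.6% of all genes called higher and 12.3% lower in KO_LV and 4.61% and 3.58% in KO_RV. Leukocyte markers averaged 7.62 to 7.83 in KO_LV against 6.90 to 7.01 in WT_LV, with 6 of 7 called higher, and 7.11 to 7.38 in KO_RV against 6.84 to 6.93 in WT_RV, with 2 of 7. The 8 immediate early genes, which respond quickly to handling of tissue, averaged 7.96 to 8.06 in KO_LV against 7.32 to 7.52 in WT_LV, with 5 called higher. Among right ventricles they averaged 7.51 to 7.83 in KO_RV against 7.30 to 7.70 in WT_RV, and 0 of 8 were called. Fetal liver markers averaged 5.72 to 6.72 in KO_LV against 7.0 to 8.59 in WT_LV, with 2 of 5 lower, and 6.66 to 7.68 in KO_RV against 7.24 to 9.71 in WT_RV, with 0 of 5. Of 4 measured neural crest and Schwann cell markers, which bear on Ednrb, Erbb3 rose in both ventricles (0.89 and 0.51), Dbh fell (-0.22 and -0.26), and Sox10 (-0.14 and -0.25) and Foxd3 (-0.30 and -0.16) did not pass. Smooth muscle and pericyte markers were 5 higher and 2 lower of 9 in KO_LV, mesenchymal ones 2 and 2 of 9, epicardial ones 1 and 0 of 6, and erythroid ones 0 and 1 of 5. The mesenchymal and epicardial counts lie near the shares of all genes. The same counts in KO_RV were 1 and 1, 0 and 1, 0 and 0, and 0 and 3. The part of these other cells and of handling in the results was not tested.

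**Figure D4:**
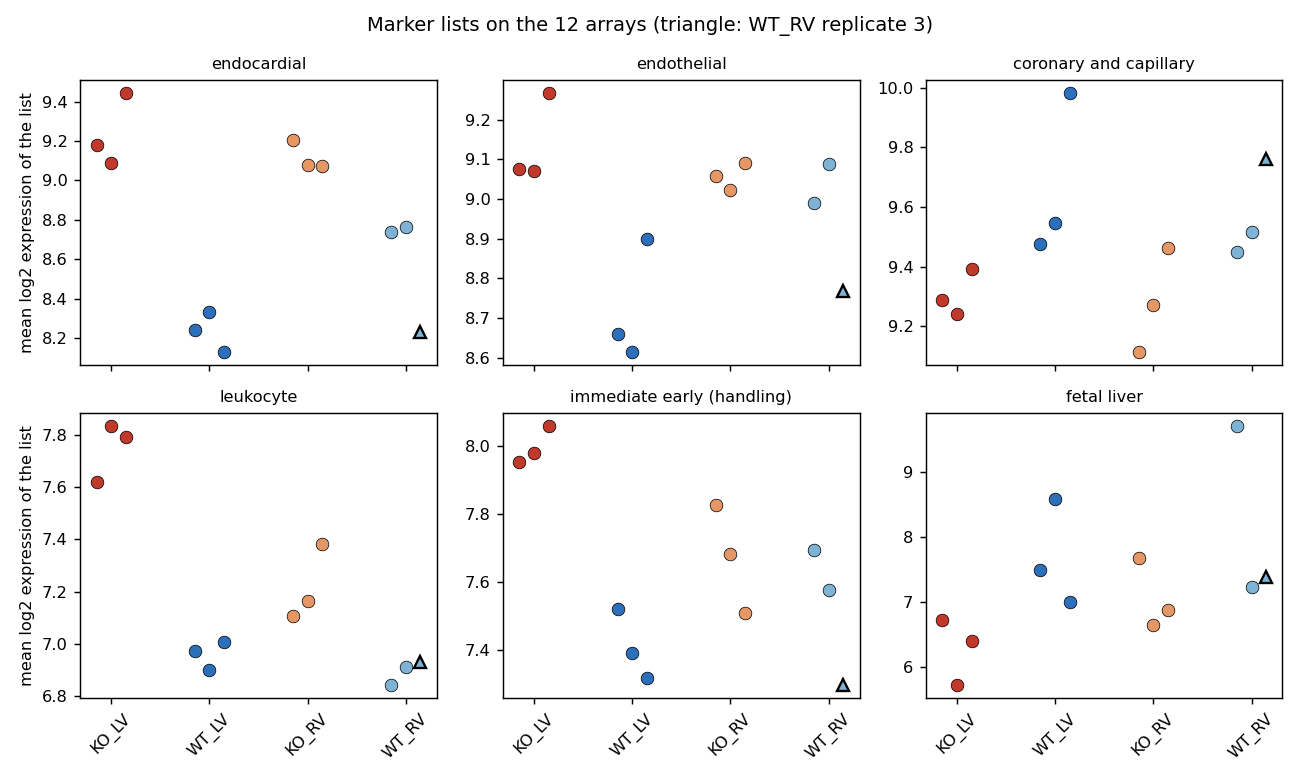
Mean log2 expression of 6 marker lists (vertical axes, scales differ) on each of the 12 arrays by group; points are arrays and the triangle is WT_RV replicate 3. Endocardial, endothelial, leukocyte and immediate early markers are higher on all KO left than on all WT left ventricles. Capillary and fetal liver markers are lower on all KO left than on all WT left ventricles. WT_RV replicate 3 lies with the WT left ventricles for endocardial markers (8.23).

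Whether the genotype difference itself differed between the ventricles was tested with the interaction of genotype and ventricle. For 7 of the 8 genes the KO minus WT difference was smaller or more negative in the right than in the left ventricle, by 0.66 for Ednrb, 0.60 for Nfatc1 and 0.51 for Ece1. The median interaction was -0.33 for the 8 genes and -0.06 over all genes, so the typical gene leaned the same way. None of the 8 was called (limma adjusted p = 0.314, 0.315 and 0.37 for Ednrb, Nfatc1 and Ece1), and 0.022% of all genes were. The 95% intervals of the interaction were -1.10 to -0.225 for Ednrb and -1.11 to -0.09 for Nfatc1. Without WT_RV replicate 3 the interaction was called for Ednrb (-0.87), Ece1 (-0.79) and Nfatc1 (-0.84), with limma adjusted p = 0.022, 0.022 and 0.0244, where 4.45% of all genes were called in this direction. These 3 calls turn on that array.

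Between the ventricles of one genotype, 0 of the 8 genes were called in KO or in WT, where 1.14% and 0.984% of all genes were. In KO embryos Klf4 was lower in all right than in all left ventricles (-0.24, 95% interval -0.44 to -0.04, limma adjusted p = 0.346), as was Nfatc1 (-0.39, limma adjusted p = 0.434), where 10.4% of all genes were lower without overlap. In WT embryos the right ventricles stood above the left for Ednrb by 0.61 (limma adjusted p = 0.0641) and for Tmem100 by 0.53 (limma adjusted p = 0.0997), both without overlap. Edn1 was a further gene higher without overlap (0.16) and Cytl1 one lower (-0.32), so 3 and 1 of 8, where 10.9% and 4.85% of all genes were. Without WT_RV replicate 3, 4 genes were called higher in right than in left WT ventricles, where 6.43% of all genes were, namely Ednrb (0.82), Ece1 (0.76), Tmem100 (0.62) and Nfatc1 (0.45). The genotype and ventricle comparisons share groups, so these values are not independent of the ones above.

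**Figure D5:**
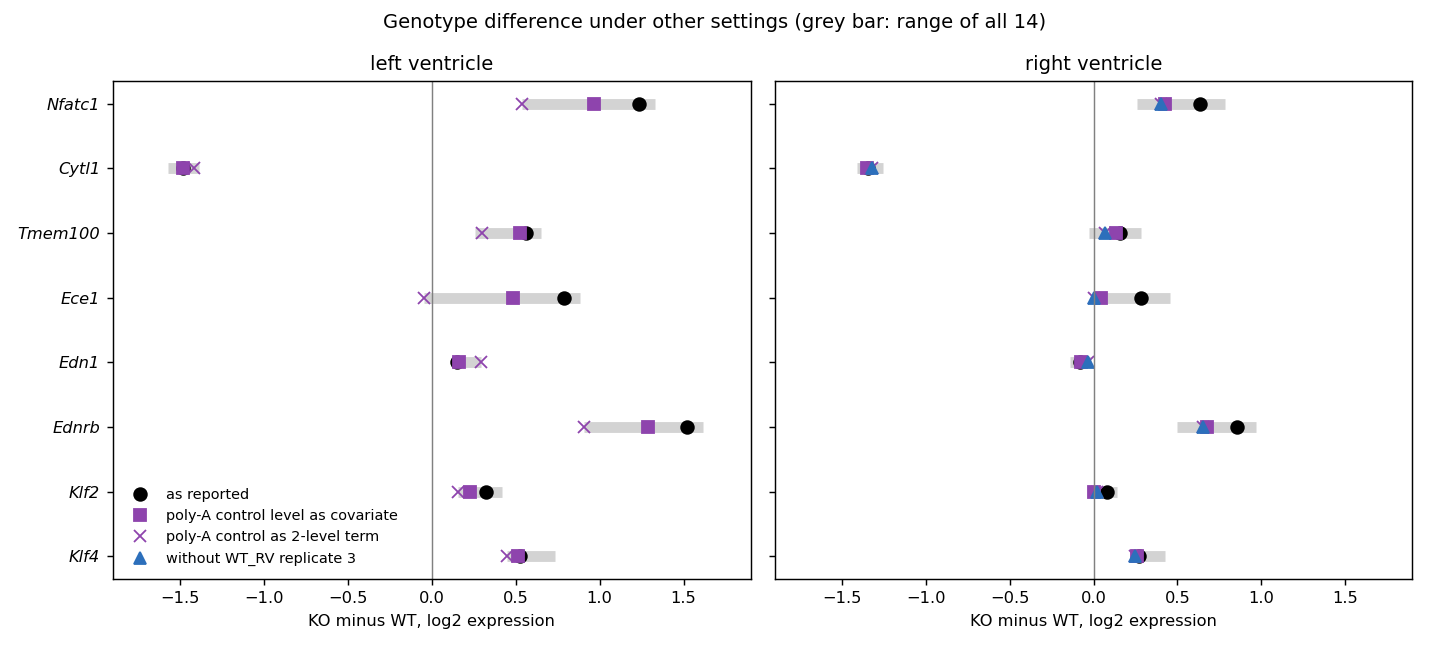
KO minus WT difference in log2 expression (horizontal axis) of the 8 genes in the left and right ventricle as reported (circle), with the poly-A control level as a covariate (square) or as a high or low class (cross), and without WT_RV replicate 3 (triangle); grey bars span the 14 other settings. Cytl1 stays between -1.57 and -1.25 throughout, while Ece1 in the left ventricle runs from -0.05 to 0.88.

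With the poly-A control level as a covariate, 3 genes were called higher in KO_LV, namely Nfatc1 (0.97), Ednrb (1.29) and Klf4 (0.51), and Cytl1 lower (-1.49), where 9.74% of all genes were called higher and 4.31% lower. With the high or low class, 1 was called higher, Ednrb (0.91, limma adjusted p = 0.0206), and Cytl1 lower (-1.42, limma adjusted p = 0.00564), where 0.737% and 0.346% of all genes were. The class term rests on WT_RV replicate 3 alone, so the calls that held do not separate the control level from genotype. In the left ventricle the control level and the genotype cannot be told apart for any of these genes, Ednrb and Cytl1 included.

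The genes whose levels ran most alike over the 12 arrays, among 11357 genes above the median of all values, follow as a description. Nfatc1 ran with Zfp319 and Sf3b2 (Pearson r = 0.992 and 0.991, Spearman rank correlation = 0.984 and 0.977), also within groups (0.969 and 0.954 after the group means were removed). Ednrb ran with Mfhas1 and Kit (r = 0.991 and 0.988) and Ece1 with Flt1, a receptor of vascular growth factors, and Fam20b (r = 0.978 and 0.976). Cytl1 ran with Frg1 and Capn3 (r = 0.983 and 0.981), which within groups came to 0.321 and 0.36. Tmem100 ran with Ehbp1l1 and Dock4 (0.922 and 0.918), Klf2 with Irx5 and Sh3pxd2b (0.945 and 0.926), and Klf4 with Pde3b and Fbln2 (0.96 and 0.957). Edn1 had the weakest likeness, to Fam214b and Lnx1 (0.81 and 0.809). All 12 arrays were normalized together. After the group means were removed, the correlations of Ece1 (0.942 and 0.957), Ednrb (0.907 and 0.849) and Klf2 (0.892 and 0.854) stayed high. Those of Tmem100 came to 0.712 and 0.789, of Klf4 to 0.635 and 0.794 and of Edn1 to 0.758 and 0.88. The 4 groups carry much of the correlation for Cytl1 above all.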

How the data were processed

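Ventricles were dissected, pooled and extracted with a silica column kit, and 100 ng of RNA went into each labelling reaction, per the labels' protocols. The authors deposited one log2 value per probe set and array (45101 probe sets, 12 arrays), computed with RMA per the submitters' processing notes. RMA subtracts background, equalises the arrays' distributions and combines probes into a set, which can mask a genome-wide shift. Its version and annotation are not given in the material used here. The values ran from 2.42 to 15.19, detection calls were not used, and the number of arrays limits the precision. Columns were assigned by name.

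One gene symbol was annotated to 34958 probe sets, several to 932 and none to 9211. For each of 18194 genes the set of highest mean was kept. All 12 arrays entered a limma fit (lmFit and eBayes, limma 3.58.1, R 4.3.3) with 4 group means and 5 comparisons and Benjamini-Hochberg adjustment over all genes, tested on simulated data; intervals are 95%. Labels give the pools as separate samples, and p-values measure the spread between these pools, which may be partly technical. Members and gene lists were chosen with earlier results of these data known. Named are all members, Nos3, up to 2 called genes of each pathway list per direction and comparison, up to 2 of each marker list, and the 2 genes most correlated with each member; Dbh, Sox10 and Foxd3 were named after their values were seen. Listed genes without a probe set of their own were not tested. Promoter windows are RefSeq's (GRCm38.p6), read for 7 of the 9 named genes.

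Alternatives were median centring, leaving out dim genes, an intensity trend with robust variances, the mean of probe sets, the compared groups alone, the poly-A level as a covariate, a threshold of 0.01, leaving out each array and the replicate number as a block. The poly-A class was added after seeing the data. Deviations of same-numbered arrays from their group means correlated at 0.111 to 0.306 between KO and WT right ventricles. Between KO ventricles they correlated at 0.21 to 0.291, and in the other comparisons at -0.008 to 0.423. The labels do not say what the number marks. The reported tests therefore treat the arrays as unpaired, and the replicate block was an alternative only.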

Additional observations from a re-analysis of the deposited data

How the results depend on the processing

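Each gene's differences kept their sign in all 14 alternatives (19 for the interaction) except as follows. With the mean of probe sets Tmem100 read -0.025 in the right ventricle KO minus WT comparison and Ece1 0.082 between KO ventricles. With the poly-A class Ece1 read -0.045 for KO_LV minus WT_LV, 0.05 for the interaction and -0.073 between WT ventricles, where Nfatc1 read -0.25 and Klf4 -0.037, and with the poly-A level Nfatc1 read -0.003 there. Leave-one-out ranges crossed 0 between KO ventricles for Ece1 (-0.095 to 0.03) and Ednrb (-0.107 to 0.017) and between WT ventricles for Klf4 (-0.057 to 0.058); none of these was called. In the left ventricle KO comparison the 6 genes called higher became 3 with the poly-A level and 1 with its class. The left call of Klf2 was lost in 7 of the 14 alternatives and that of Tmem100 in 3, both poly-A fits included. At the threshold of 0.01 the Klf2 call (limma adjusted p = 0.0334) was lost as well. In the right, 2 became 1 with the mean of probe sets, in which Klf4 and not Nfatc1 or Ednrb was called, and with the compared groups alone, the poly-A level, its class and the threshold of 0.01 (Ednrb in each), and leave-one-out gave 1 to 2. With an intensity trend and robust variances 1 gene, Ednrb, was called higher between WT ventricles, where 168 of all 18194 genes were. Leave-one-out gave 0 to 4 higher there, where 45 to 1169 of all genes were. For the interaction leave-one-out gave 0 to 3 called lower, where 2 to 810 of all genes were. The highest of these counts came without WT_RV replicate 3. With the replicate block the left difference of Nfatc1 was 1.24 (limma adjusted p = 0.000133) and the block changed no call of these genes. Over all genes, 3378 higher and 2239 lower calls in KO_LV became 1773 and 785 with the poly-A level, 134 and 63 with its class and 2101 and 992 at the threshold of 0.01. In KO_RV 838 and 652 became 481 and 322 with the poly-A level, 556 and 411 with its class, 537 and 391 with the compared groups alone and 327 and 206 at 0.01. With the mean of probe sets they became 607 and 609. Leaving out 1 array gave 2487 to 3242 higher and 1421 to 1849 lower in KO_LV. In KO_RV it gave 447 to 1095 higher and 315 to 718 lower, with 447 and 315 without KO_RV replicate 1, 529 and 375 without replicate 2 and 456 and 380 without replicate 3. The interaction could not be fitted with the compared groups alone, since it needs all 4.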
